A study of Mus musculus with 78 samples.

Results

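Vitamin A is held in the liver as retinyl esters, mostly in stellate cells. Lrat makes the esters and Rbp4 carries retinol out of hepatocytes into the blood. Inside the cell retinol is oxidised to retinal, which Dhrs3 turns back to retinol and which Aldh1a1 oxidises to retinoic acid. Cyp26a1 and Cyp26b1 break retinoic acid down, and Rarb is one of the nuclear receptors that it activates. Cyp26a1, Rarb, Lrat and Dhrs3 are textbook examples of genes that respond to retinoic acid. Aldh1a7 is a close rodent relative of Aldh1a1. These 8 genes of retinoid storage and breakdown were followed in mouse liver. They were picked by symbol from 19938 genes with a symbol of their own on an expression array of 35556 probe sets. Each of the 8 is read by 1 probe set.

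The study measured 78 livers of female mice, 1 array per mouse, in 18 groups. Npc1 encodes a lysosomal cholesterol transporter whose loss causes Niemann-Pick type C disease. In the age series, Npc1-/- mice were compared with Npc1+/+ littermates, both from heterozygote crosses of BALB/cNctr-Npc1m1N/J mice, so that Npc1 function was missing from birth in every tissue. Each genotype had 4 mice at each of 6 ages: week 1, week 3, week 5, week 7, week 9 and week 11. According to the labels, mutants were before the age of symptoms at 1 and 3 weeks and past it from 5 weeks. The second set held 12-week-old BALB/cJ mice, all Npc1+/+ by genotype, in 6 groups of 5: an Npc1 antisense oligonucleotide (oligo) with N-acetyl-cysteine (NAC, an antioxidant), a control oligo with NAC, the Npc1 oligo alone, the control oligo alone, an overnight fast, and no treatment. Dosing with oligos and NAC began at week 8 and lasted 4 weeks. The oligos act in adult animals, and the sources used here do not give their sequences. Mice given the Npc1 oligo were labelled symptomatic.

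Npc1 itself averaged 8.10 to 8.78 on the log2 scale in Npc1-/- livers, against 9.26 to 10.27 in Npc1+/+ livers, over the 6 ages. It averaged 7.25 ± 0.22 with the Npc1 oligo and 10.22 ± 0.14 with the control oligo (SD, n = 5 each), so both labels matched the targeted RNA. With NAC the level was 7.11 ± 0.31 in Npc1 oligo livers and 9.19 ± 0.46 in control oligo livers. The control oligo group with NAC was thus 1.03 ± 0.15 (SE) below the control oligo alone (adjusted p = 6.01e-05, limma). Array medians ran from 5.35 to 5.65, and arrays of a group correlated at a mean r of 0.983 to 0.993 over probe sets. The skeletal muscle list was at 8.92 in Npc1-/- mouse 3 at 1 week, at 6.64 in Npc1+/+ mouse 3 at 7 weeks and at 6.03 in Npc1+/+ mouse 4 at 3 weeks, and the 3-week Npc1+/+ group included pancreas genes at a list level of up to 8.35, in mouse 1. All values below are log2 values as deposited, so a difference of 1 is 2-fold. Levels of different genes are read by different probes and were not compared.

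Cyp26a1 and Rarb are shown here because their promoter sequences carry a known type of retinoic acid response element. RefSeq promoter windows, each of 250 bases before to 50 bases after an annotated start, were found for all 8 genes (build GRCm38.p6). They were searched on both strands for direct repeats of a unit of 6 bases with 5 bases between the copies. The unit was either AGTTCA, the common core site AGGTCA, the variant spelled GGTTCA or the further variant spelled GGGTCA. Of the 8 genes, Cyp26a1 and Rarb hold such a repeat in their windows, as do 0.0974% of all 32851 windows. With a spacer of 2 bases, which is in 0.268% of all windows, no window of the 8 genes matched. The 100 bases before each start are printed 5′ to 3′ on the gene's strand, with the 6-base repeats in capitals. Cyp26a1 lies at chr19:37697708-37697807 on the plus strand, with the repeat at positions -32 to -16 from the start and readable as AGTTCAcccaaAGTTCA on the opposite strand. Rarb lies at chr14:16575477-16575576 on the minus strand, with the repeat at positions -53 to -37. The annotated genes reach further upstream than these starts, to 37697738 for Cyp26a1 and 17082331 for Rarb. Both repeats thus lie inside the annotated gene spans.
Cyp26a1: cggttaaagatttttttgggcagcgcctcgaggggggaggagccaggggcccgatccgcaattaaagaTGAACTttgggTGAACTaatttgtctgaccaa
Rarb: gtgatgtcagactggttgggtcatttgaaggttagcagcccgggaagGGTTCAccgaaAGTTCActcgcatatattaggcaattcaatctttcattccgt
A match describes these letters only and does not show that the element was in use in these livers.

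Aldh1a1 and Aldh1a7 are shown because their values moved together. They are neighbours on chromosome 19 with 0 protein-coding genes between them, on opposite strands. The last 120 bases before the second annotated Aldh1a1 start, at chr19:20601848-20601967 on the plus strand, and those before the Aldh1a7 start, at chr19:20727557-20727676 on the minus strand, are identical at 105 positions (87.5%). The length of 120 bases was set beforehand, at the Aldh1a1 start with the higher identity, and the most alike stretch was not searched for. Over all 250 bases before these starts 73.6% of aligned bases are identical, and 62.2% with the first annotated Aldh1a1 start. Capitals mark the 15 positions that differ.
Aldh1a1: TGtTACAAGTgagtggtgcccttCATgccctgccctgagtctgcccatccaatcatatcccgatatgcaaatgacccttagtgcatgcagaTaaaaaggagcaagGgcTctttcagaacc
Aldh1a7: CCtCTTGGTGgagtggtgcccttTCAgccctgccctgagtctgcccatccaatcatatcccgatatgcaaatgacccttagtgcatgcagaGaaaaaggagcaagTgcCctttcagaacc
The probe sequences of the array were not used here, so how far 1 of the 2 probe sets also reads the RNA of the other gene was not tested.

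In Npc1-/- livers the 8 genes did not move as a block. Cyp26a1, Aldh1a1, Aldh1a7 and Dhrs3 were lower and Lrat and Rarb higher on average over the 6 ages, and Cyp26b1 and Rbp4 did not pass the test. With the Npc1 oligo Cyp26a1, Aldh1a1, Aldh1a7 and Dhrs3 were lower than with the control oligo. With NAC in both arms Cyp26a1, Aldh1a7, Dhrs3, Lrat and Rarb were lower. In whole liver, fewer cells of a type and less RNA per cell cannot be told apart. Differences were tested with limma over all genes above a filter on low values, 12638 for the age series and 11794 for the 12-week mice, with Benjamini-Hochberg adjustment and a threshold of 0.05. At 1 week 0 of the 8 passed, against 5.69% of all genes tested, and 1 of 8 (Rbp4) had an unadjusted p under the threshold. The count was 4 at 3 weeks (15.7% of all genes), 1 at 5 weeks (12.6%) and 4 at 7 weeks (25.3%). It was 2 at 9 weeks (33.2%) and 4 at 11 weeks (39.3%). The mean over ages passed for 6 of 8, while 52.6% of all genes passed it. The Npc1 oligo changed 4 of 8 without NAC (22.9% of all genes) and 5 of 8 with NAC (25.9%). The median difference of the 8 genes at 11 weeks was -0.33, against -0.02 over all genes tested. For the Npc1 oligo it was -0.17 without NAC and -0.34 with NAC, against 0.02 and -0.01 over all genes.

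**Figure D1:**
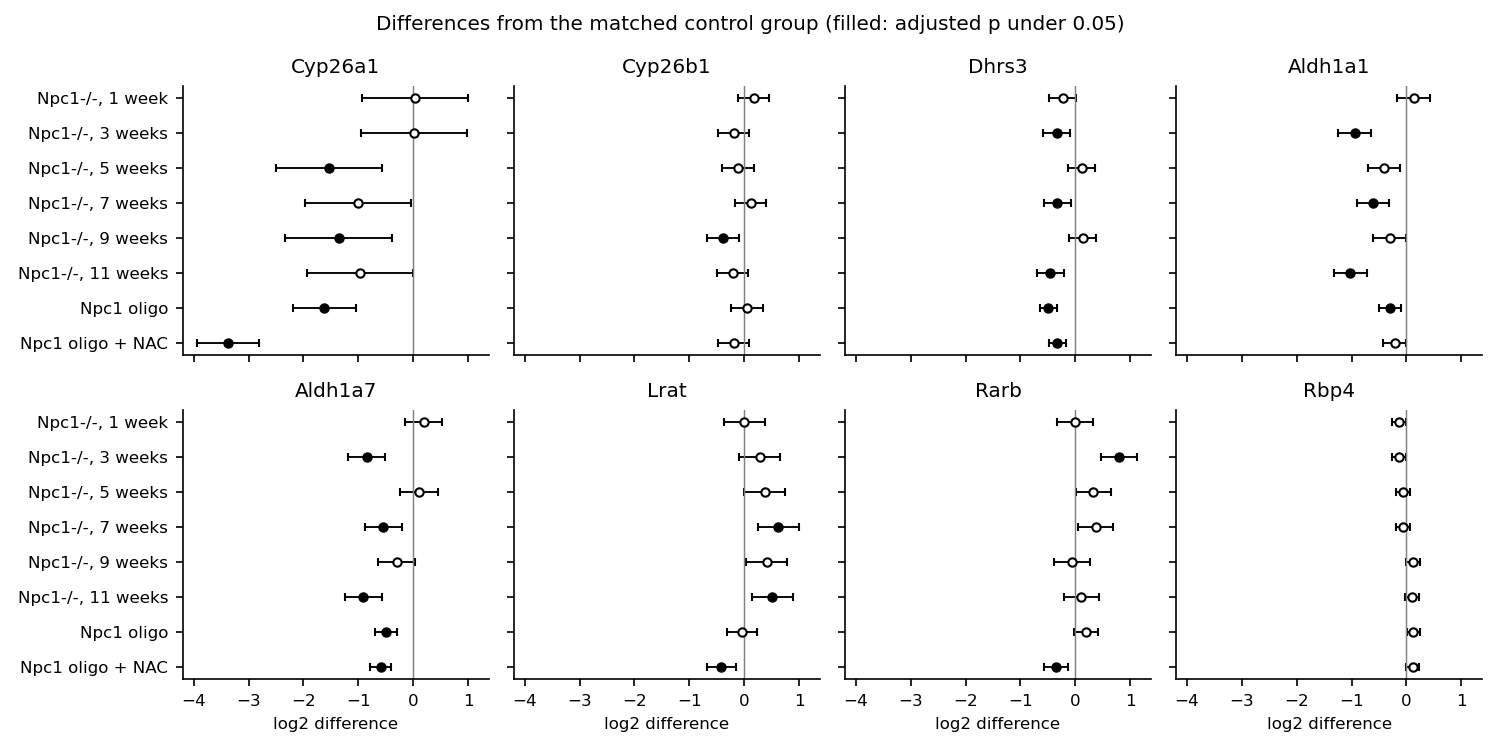
Log2 differences (x axis) of the 8 genes, 1 panel each, for Npc1-/- minus Npc1+/+ at the 6 ages and for Npc1 oligo minus control oligo without and with NAC (rows); points are limma estimates, bars 95% intervals and filled points passed the adjusted threshold of 0.05. The Cyp26a1 interval of the NAC arm lies at -3.37 ± 0.28 (SE), while all Rbp4 points lie within 0.14 of 0.

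Cyp26a1, the main hepatic enzyme of retinoic acid breakdown, gave a low signal in all young mice, rose with age in Npc1+/+ livers and was lower in Npc1-/- livers from 5 weeks on average. At 1 and 3 weeks its values ran from 4.11 to 4.48 in 8 Npc1-/- mice and from 4.05 to 4.53 in 8 Npc1+/+ mice, all below 5.54, the median of all values on all arrays. Between 5 and 11 weeks, 2 of 16 Npc1-/- mice and 10 of 16 Npc1+/+ mice were above that median. The Npc1-/- means also went up, from 4.27 at 3 weeks to 4.62 at 7, 5.12 at 9 and 5.47 at 11 weeks, the last with 1 mouse at 7.40. Age was not tested in Npc1-/- mice. The values carry no detection call, so a fold against a level near 4.3 is the fold of the signal and may understate the change in RNA.

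At 5 weeks Cyp26a1 was 4.22, 4.16, 4.83 and 4.02 in Npc1-/- mice, against 4.97, 5.65, 5.37 and 7.36 in Npc1+/+ mice. Every mutant was below every control, and control mouse 4 was far above the other 3 controls. The difference was -1.53 ± 0.48 (SE, adjusted p = 0.0264, limma), a 2.89-fold lower signal. The call was lost without Npc1+/+ mouse 4 (-1.02, adjusted p = 0.21) and without Npc1-/- mouse 1, 2 or 4 (adjusted p = 0.0541, 0.0704 and 0.0666).

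At 7 weeks the values were 4.66, 5.24, 4.07 and 4.5 in Npc1-/- mice, against 5.40, 5.18, 6.69 and 5.2 in Npc1+/+ mice. The groups overlapped by 1 mutant value, and the difference of -1.0 ± 0.48 did not pass (adjusted p = 0.129). At 9 weeks they were 4.84, 5.83, 5.14 and 4.66 in Npc1-/- mice, against 4.87, 8.32, 6.31 and 6.41 in Npc1+/+ mice. The groups overlapped, with the lowest control at the level of the mutants, and the difference of -1.36 ± 0.48 passed (adjusted p = 0.0254). It was lost without Npc1+/+ mouse 2, the highest of all age-series mice (-0.75, adjusted p = 0.223), and without Npc1-/- mouse 1 or 4 (adjusted p = 0.0655 and 0.077). It was also lost when only the 9-week groups were fitted (adjusted p = 0.0623).

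At 11 weeks Cyp26a1 was 4.82, 4.87, 4.79 and 7.40 in Npc1-/- mice, against 6.61, 6.08, 7.31 and 5.74 in Npc1+/+ mice. Of the 4 mutants, 3 lay below all controls and mouse 4 above all of them. The difference was -0.96 ± 0.48 with that mouse (adjusted p = 0.111) and -1.61 without it (adjusted p = 0.00415). Averaged over the 6 ages it was -0.80 ± 0.20 (adjusted p = 0.000611), and it did not vary between ages beyond the threshold (adjusted p = 0.216, moderated F test).

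The Npc1 oligo gave the same direction in adult livers. Cyp26a1 was 4.79, 5.09, 4.75, 5.37 and 4.51 with the Npc1 oligo, against 6.32, 6.10, 7.29, 6.24 and 6.63 with the control oligo. The groups did not overlap, and all 5 Npc1 oligo mice were below the median of all values. The difference was -1.62 ± 0.28 (adjusted p = 7.93e-05), a 3.06-fold lower signal, and leaving out 1 mouse at a time kept it between -1.73 and -1.42.

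In the arms given NAC, Cyp26a1 was 4.51, 4.38, 4.46, 3.87 and 4.73 with the Npc1 oligo and NAC, against 7.33, 8.29, 7.53, 8.07 and 7.59 with the control oligo and NAC. No values overlapped, and all 5 Npc1 oligo mice with NAC were below the median of all values. The difference was -3.37 ± 0.28 (adjusted p = 2.66e-10), a 10.4-fold lower signal. The hepatocyte marker list was at 12.32 to 12.65 with the Npc1 oligo and NAC, against 12.69 to 12.82 with the control oligo and NAC. Of these markers 3 of 6 were lower, where 25.9% of all genes passed, and their part was not tested. In the control oligo mice NAC raised Cyp26a1 by 1.25 ± 0.28 (adjusted p = 0.00478), and these groups did not overlap. In the Npc1 oligo mice NAC left it at -0.51 ± 0.28 (95% interval -1.08 to 0.05, adjusted p = 0.301). The difference between these NAC effects was -1.76 ± 0.39 (adjusted p = 0.00834), and it passed without each of the 20 mice in turn (adjusted p = 0.00407 to 0.0212). Both Npc1 oligo groups lay below the median of all values, where the array may compress a NAC change. Leaving out single mice does not address this, and it was not tested.

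The control oligo group with NAC had the highest Cyp26a1 mean of all 18 groups, 7.76 ± 0.40. The control oligo alone (6.52 ± 0.47) was second. Fasted mice averaged 6.00 ± 0.37 and untreated mice 5.90 ± 0.84, a difference of 0.10 ± 0.28 (adjusted p = 0.964). The control oligo was 0.61 ± 0.28 above untreated (adjusted p = 0.101). Untreated mouse 1, at 7.29, was apart from the other 4, which ran from 5.14 to 6.02, and without it the difference was 0.96 (adjusted p = 0.00359). Of the 17 pairs of neighbours in the order of the group means, 1 did not overlap, the pair at the top.

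**Figure D2:**
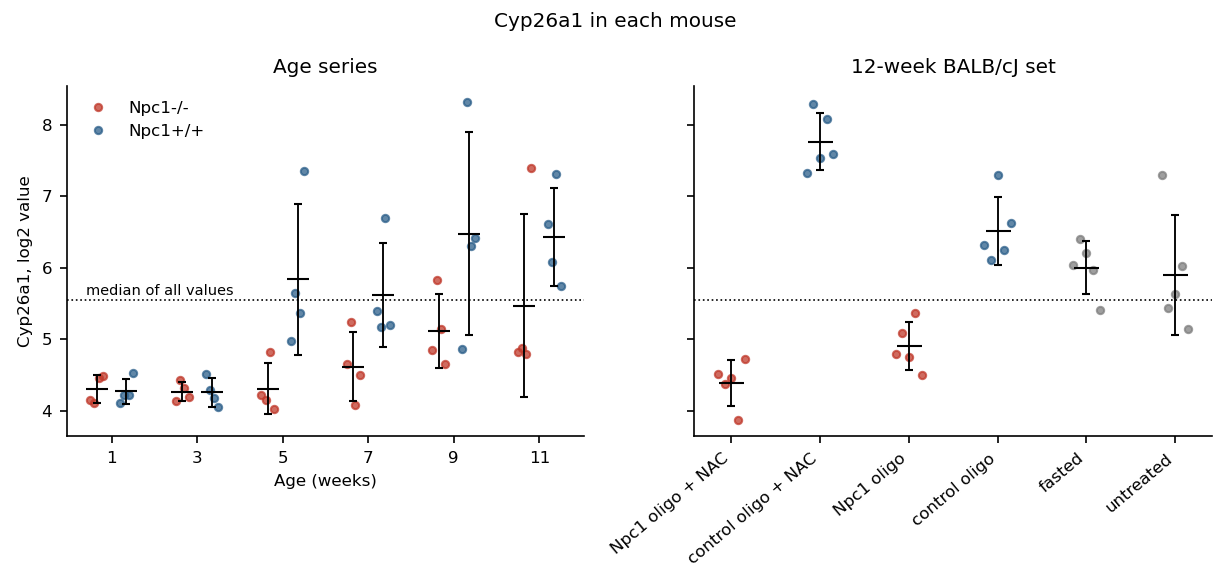
Cyp26a1 log2 value (y axis) of each of the 78 mice, by age and genotype (left, Npc1-/- in red left of Npc1+/+ in blue) and by 12-week group (right); bars are means and SD, and the dotted line is the median of all values, 5.54. All mice of 1 and 3 weeks and all 10 Npc1 oligo mice lie below the line, and all 10 control oligo mice above it.

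Cyp26b1, the second retinoic acid hydroxylase, moved little. Its group means ran from 6.04 to 6.63, again with the control oligo and NAC group highest. At 9 weeks it was 5.99, 6.25, 6.12 and 6.24 in Npc1-/- mice, against 6.24, 7.16, 6.49 and 6.25 in Npc1+/+ mice. The groups overlapped, and the difference of -0.38 ± 0.14 (adjusted p = 0.0318) was lost without Npc1+/+ mouse 2 (-0.18, adjusted p = 0.311) or Npc1-/- mouse 1 or 3 (adjusted p = 0.103 and 0.0622) and with only the 9-week groups fitted (adjusted p = 0.101). NAC in control oligo mice gave 0.33 ± 0.14 (adjusted p = 0.136), and 0.46 without control oligo and NAC mouse 1 (adjusted p = 0.0335). Its 95% intervals for the Npc1 oligo were -0.24 to 0.34 without NAC and -0.48 to 0.10 with NAC.

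Aldh1a1, which oxidises retinal to retinoic acid, and its relative Aldh1a7 rose early in life. In Npc1+/+ livers Aldh1a1 averaged 8.83 ± 0.37 at 1 week, 12.07 ± 0.19 at 3 weeks and 12.52 to 12.54 from 5 to 11 weeks (SD, n = 4 each). The step between 1 and 3 weeks was 3.24 ± 0.15 (adjusted p = 6.64e-22), a 9.48-fold rise with no overlap. Aldh1a7 averaged 8.21 ± 0.44 at 1 week and 9.93 ± 0.29 at 3 weeks, a step of 1.72 ± 0.17 (adjusted p = 3.91e-11), and rose by another 0.89 ± 0.17 by 5 weeks (adjusted p = 0.000431). The 3-week time point is also the age at which the pups were weaned.

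At 3 weeks both genes were lower in Npc1-/- livers. Aldh1a1 was 11.09, 10.93, 10.99 and 11.50 in Npc1-/- mice, against 12.28, 12.19, 11.93 and 11.89 in Npc1+/+ mice. Aldh1a7 was 8.59, 9.04, 9.08 and 9.61 in Npc1-/- mice, against 10.04, 10.28, 9.78 and 9.62 in Npc1+/+ mice. Neither gene's groups overlapped, though the highest Aldh1a7 mutant came close to the lowest control. The differences were -0.94 ± 0.15 for Aldh1a1 (adjusted p = 7.89e-06) and -0.85 ± 0.17 for Aldh1a7 (adjusted p = 0.000341). Without the 2 Npc1+/+ mice that carried most of the pancreas signal they were -0.78 (adjusted p = 0.0034) and -0.62 (adjusted p = 0.0498). General hepatocyte genes were also lower in this comparison, with 4 of 6 past the test, where 15.7% of all genes passed. Their list level was 12.33 to 12.69 in Npc1-/- mice against 12.75 to 12.90 in Npc1+/+ mice. Their part in the result was not tested.

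The size of the genotype effect varied between ages for Aldh1a1 (adjusted p = 0.00018) and Aldh1a7 (adjusted p = 0.000457). Aldh1a1 differed by 0.13 ± 0.15 at 1 week, -0.41 ± 0.15 at 5 weeks (adjusted p = 0.0627), -0.61 ± 0.15 at 7 weeks (adjusted p = 0.0014) and -0.31 ± 0.15 at 9 weeks (adjusted p = 0.109, and 0.0133 with only the 9-week groups fitted). Aldh1a7 differed by 0.10 ± 0.17 at 5 weeks, -0.54 ± 0.17 at 7 weeks (adjusted p = 0.0144) and -0.30 ± 0.17 at 9 weeks (adjusted p = 0.179, and 0.0266 with only the 9-week groups fitted). The 7-week Aldh1a7 call was lost without Npc1+/+ mouse 3, the mouse with muscle signal at that age (-0.41, adjusted p = 0.0953). The 5-week Aldh1a1 difference passed without Npc1-/- mouse 2 or 4 (-0.48, adjusted p = 0.0478, and -0.49, adjusted p = 0.0331).

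At 11 weeks Aldh1a1 was 11.72, 11.55, 11.60 and 11.23 in Npc1-/- mice, against 12.69, 12.60, 12.33 and 12.55 in Npc1+/+ mice. No mutant reached a control, and the difference of -1.02 ± 0.15 (adjusted p = 2.34e-07) is a 2.03-fold lower signal. Aldh1a7 was 9.99, 9.82, 9.98 and 10.02 in Npc1-/- mice, against 11.09, 10.90, 10.42 and 11.03 in Npc1+/+ mice. These groups did not overlap either, and the difference was -0.91 ± 0.17 (adjusted p = 2.52e-05).

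Both genes were also lower with the Npc1 oligo. Aldh1a1 was 11.29, 11.32, 11.41, 11.26 and 11.10 with the Npc1 oligo, against 11.95, 11.27, 11.54, 11.56 and 11.56 with the control oligo. The groups overlapped through control mouse 2, and the difference of -0.30 ± 0.10 (adjusted p = 0.0312) was lost without control mouse 1 (-0.20, adjusted p = 0.134) or Npc1 oligo mouse 4 or 5 (adjusted p = 0.0503 and 0.0947). With NAC in both arms Aldh1a1 differed by -0.22 ± 0.10 (adjusted p = 0.12), and by -0.31 without control oligo and NAC mouse 4 (adjusted p = 0.0194). The genotype difference of Aldh1a1 at 11 weeks less the oligo difference came to -0.72 ± 0.18 (adjusted p = 0.00177), and that of Aldh1a7 was -0.41 ± 0.20 (adjusted p = 0.125). Aldh1a1 was 1 of the 8 genes past the threshold in that contrast, with 27.7% of all genes. The 2 sets differ in age, in strain source and in how long Npc1 was missing, and these cannot be told apart.

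Aldh1a7 was 9.79, 9.74, 10.04, 9.57 and 9.68 with the Npc1 oligo, against 10.34, 10.12, 10.25, 10.21 and 10.38 with the control oligo. The groups did not overlap, with a difference of -0.49 ± 0.10 (adjusted p = 0.000307), and with NAC it was -0.59 ± 0.10 (adjusted p = 2.09e-05). NAC raised Aldh1a7 by 0.40 ± 0.10 in control oligo mice (adjusted p = 0.00829). In Npc1 oligo mice the NAC difference of 0.30 ± 0.10 just passed (adjusted p = 0.0482) and was lost without Npc1 oligo mouse 1, 2, 4 or 5 or Npc1 oligo and NAC mouse 1, 2, 4 or 5 (adjusted p = 0.0532 to 0.148).

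The control oligo itself went with lower Aldh1a7. It was 10.34, 10.12, 10.25, 10.21 and 10.38 with the control oligo, against 10.75, 10.79, 10.92, 11.01 and 10.45 in untreated mice. The groups did not overlap, and the difference was -0.52 ± 0.10 (adjusted p = 0.000199). Aldh1a1 was -0.27 ± 0.10 in the same comparison (adjusted p = 0.0452), a call that was lost without control oligo mouse 2, 3, 4 or 5 or untreated mouse 1, 2, 3 or 4 (adjusted p = 0.062 to 0.178). These were 2 of the 8 genes, and 26.6% of all genes passed this comparison. The control oligo mice serve as the reference for the Npc1 oligo and for NAC, so these comparisons share samples. Fasting gave 0 of 8 genes past the threshold in limma, with 0.534% of all genes, and 1 of 8 (Aldh1a7) at an unadjusted p under it. The Aldh1a7 difference in fasted mice was -0.37 ± 0.10 (adjusted p = 0.0638), and it passed without untreated mouse 5 (-0.46, adjusted p = 0.0145).

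**Figure D3:**
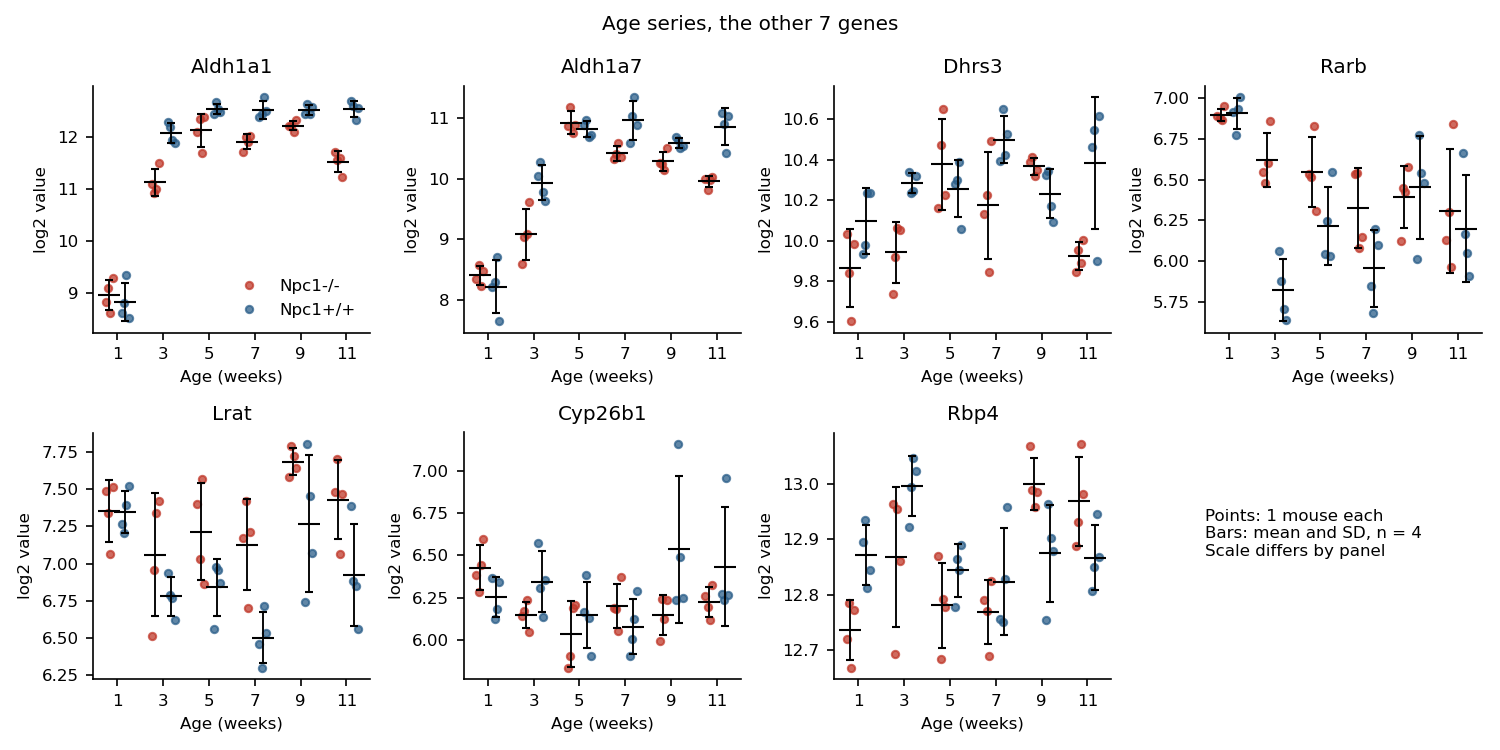
Log2 values (y axes, scale set per panel) of the other 7 genes in each mouse of the age series by age in weeks (x axes), with Npc1-/- in red left of Npc1+/+ in blue and bars for mean and SD (n = 4). Aldh1a1 and Aldh1a7 show the step after 1 week and lower mutant values at 3 and 11 weeks, and Rarb at 3 weeks shows mutants at 6.48 to 6.86 above controls at 5.64 to 6.07.

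Dhrs3, which reduces retinal back to retinol, fell in Npc1-/- livers at 11 weeks and with the Npc1 oligo. At 11 weeks it was 9.85, 9.95, 9.89 and 10 in Npc1-/- mice, against 10.46, 10.55, 9.90 and 10.61 in Npc1+/+ mice. The groups overlapped only through control mouse 3, and the difference was -0.46 ± 0.12 (adjusted p = 0.0021). At 3 weeks it was -0.34 ± 0.12 (adjusted p = 0.0476), a call kept without Npc1-/- mouse 4 and lost without any other single mouse of the 2 groups (adjusted p = 0.0541 to 0.161) and without both Npc1+/+ mice with pancreas signal (-0.34, adjusted p = 0.191). At 7 weeks it was -0.32 ± 0.12 (adjusted p = 0.0436), a call kept without Npc1-/- mouse 4 or Npc1+/+ mouse 1 and lost without any other single mouse (adjusted p = 0.0528 to 0.24). At 5 and 9 weeks the differences were 0.12 ± 0.12 and 0.14 ± 0.12, and the effect varied between ages (adjusted p = 0.0155). With quantile normalization the variation (adjusted p = 0.0755) and the 3- and 7-week calls (adjusted p = 0.123 and 0.115) were lost, and without the filter the 3- and 7-week calls were lost too (adjusted p = 0.0682 and 0.0617).

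Dhrs3 was 10.10, 9.97, 10.07, 10.04 and 9.78 with the Npc1 oligo, against 10.69, 10.33, 10.55, 10.44 and 10.42 with the control oligo. Again no values overlapped, and the difference was -0.49 ± 0.08 (adjusted p = 2.07e-05). With NAC it was 10.41, 10.37, 10.17, 10.04 and 10.30 in Npc1 oligo mice, against 10.47, 10.73, 10.74, 10.51 and 10.47 in control oligo mice. These groups did not overlap either, with a difference of -0.33 ± 0.08 (adjusted p = 0.00161). The NAC difference within Npc1 oligo mice was 0.26 ± 0.08 (adjusted p = 0.0315). It was lost without Npc1 oligo mouse 2 or 5 or Npc1 oligo and NAC mouse 1, 2 or 5 (adjusted p = 0.0562 to 0.114). NAC thus changed 2 of the 8 genes in Npc1 oligo mice, against 7.27% of all genes.

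Lrat, which esterifies retinol for storage, was higher in Npc1-/- livers. Averaged over the 6 ages the difference was 0.37 ± 0.08 (adjusted p = 6.48e-05), and it did not vary between ages beyond the threshold (adjusted p = 0.419). At 7 weeks Lrat was 7.17, 7.42, 6.70 and 7.21 in Npc1-/- mice, against 6.46, 6.30, 6.72 and 6.53 in Npc1+/+ mice. Of the 4 mutants, 3 lay above all controls, and the difference was 0.62 ± 0.19 (adjusted p = 0.00929). At 11 weeks it was 7.48, 7.70, 7.07 and 7.47 in Npc1-/- mice, against 7.39, 6.89, 6.85 and 6.56 in Npc1+/+ mice. The groups overlapped, and the difference of 0.51 ± 0.19 (adjusted p = 0.0258) was lost without Npc1+/+ mouse 2, 3 or 4 or Npc1-/- mouse 1, 2 or 4 (adjusted p = 0.0503 to 0.122). At 9 weeks the difference was 0.41 ± 0.19 (adjusted p = 0.0813), and it passed without Npc1+/+ mouse 2 (0.59, adjusted p = 0.0135).

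Markers of quiescent stellate cells, the main site of Lrat, were at a list level of 7.43 to 7.46 in Npc1-/- mice against 7.25 to 7.32 in Npc1+/+ mice at 7 weeks, and of 7.40 to 7.49 against 7.25 to 7.37 at 11 weeks. At 11 weeks 3 of 11 tested list genes were higher and 1 lower, where 39.3% of all genes passed. Gfap, a classic marker, was above the median of all values on 0 of 78 arrays. Macrophage markers were at 10.46 to 10.59 in Npc1-/- mice against 6.97 to 7.11 in Npc1+/+ mice at 11 weeks, with 7 of 7 higher. With the Npc1 oligo they were at 8.71 to 9.53, against 7.56 to 7.92 with the control oligo. The part of these cell markers in the results for the 8 genes was not tested.

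With the Npc1 oligo Lrat differed by -0.04 ± 0.13 (95% interval -0.32 to 0.23, adjusted p = 0.84). With NAC it was 7.47, 7.13, 6.99, 7.21 and 7.30 in Npc1 oligo mice, against 7.38, 7.57, 7.71, 7.90 and 7.60 in control oligo mice. The groups overlapped through 1 mouse each, and the difference of -0.42 ± 0.13 (adjusted p = 0.0198) was lost without control oligo and NAC mouse 4 (-0.35, adjusted p = 0.0688) or Npc1 oligo and NAC mouse 3 (-0.36, adjusted p = 0.0545). NAC raised Lrat by 0.44 ± 0.13 in control oligo mice (adjusted p = 0.0371), a call lost without control oligo mouse 2, 4 or 5 or control oligo and NAC mouse 2, 3, 4 or 5 (adjusted p = 0.0557 to 0.124). The quiescent stellate list was at 7.24 to 7.35 in the control oligo group with NAC, against 7.23 to 7.5 without it.

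Rbp4, the plasma carrier of retinol, stayed within a narrow band. Its 78 values ran from 12.67 to 13.13, group means from 12.74 to 13.08, and it passed the threshold in none of the 20 contrasts as fitted here. Other scalings called it in some: with centring the Npc1 oligo difference was 0.17 (adjusted p = 0.0388), and with quantile normalization that with NAC was 0.19 (adjusted p = 0.00237). The 95% interval of its mean genotype difference over the ages was -0.08 to 0.03. Its variation between ages had an adjusted p of 0.0524 by limma, and it passed without several single mice (adjusted p as low as 0.0351). The Npc1 oligo group was the highest of the 18, with a difference of 0.13 ± 0.06 from the control oligo (95% interval 0.00 to 0.25, adjusted p = 0.127). With NAC the same difference was 0.12 ± 0.06, and it passed without Npc1 oligo and NAC mouse 3, at 12.68 the lowest of its group (0.18, adjusted p = 0.0107). At such a high signal an array may compress differences, which was not tested here.

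Rarb, a retinoic acid receptor whose own gene responds to retinoic acid, was higher in the mutants at 3 weeks. In Npc1+/+ livers it averaged 6.91 ± 0.10 at 1 week and 5.82 ± 0.19 at 3 weeks, a drop of 1.09 ± 0.16 on the log2 scale (adjusted p = 4.84e-07). In Npc1-/- livers it was 6.54, 6.48, 6.60 and 6.86 at 3 weeks, against 6.07, 5.88, 5.70 and 5.64 in Npc1+/+ livers. All mutants were above all controls, and the difference was 0.80 ± 0.16 (adjusted p = 0.000339). At this age 15.7% of all genes passed. Macrophage markers were at 8.36 to 8.77 in Npc1-/- mice against 6.70 to 7.19 in Npc1+/+ mice, with 6 of 7 higher. Sinusoidal endothelial markers were at 8.03 to 8.36 in Npc1-/- mice against 8.53 to 8.72 in Npc1+/+ mice, with 3 of 6 lower. Their part in the result was not tested. Without the 2 Npc1+/+ mice with pancreas signal it was 0.95 (adjusted p = 0.00103). Rarb averaged 6.55 in Npc1-/- against 6.22 in Npc1+/+ livers at 5 weeks, 6.33 against 5.96 at 7 weeks and 6.40 against 6.45 at 9 weeks. At 5 and 7 weeks the unadjusted limma p was under 0.05, and the adjusted p did not pass. At 1 week the genotype difference was -0.01 ± 0.16 and at 11 weeks 0.11 ± 0.16, and the effect varied between ages (adjusted p = 0.0238). That variation was lost without Npc1+/+ mouse 3 or 4 or Npc1-/- mouse 4 of the 3-week groups (adjusted p = 0.0532, 0.0591 and 0.0648).

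In the 12-week set Rarb was higher with NAC in the control oligo mice. It was 6.67, 6.99, 7.08, 7.08 and 6.69 with the control oligo and NAC, against 6.45, 6.28, 6.32, 6.35 and 6.5 with the control oligo alone. The groups did not overlap, and the difference was 0.52 ± 0.11 (adjusted p = 0.00229). With the Npc1 oligo, NAC gave -0.02 ± 0.11 (95% interval -0.24 to 0.20). The difference between these NAC effects was -0.54 ± 0.15 (adjusted p = 0.0326), which was lost without Npc1 oligo and NAC mouse 3, Npc1 oligo mouse 3 or 4, control oligo and NAC mouse 2 or 4, or control oligo mouse 2 or 4 (adjusted p = 0.0523 to 0.0658). With NAC, Rarb was -0.35 ± 0.11 in Npc1 oligo against control oligo mice (adjusted p = 0.0143), lost without Npc1 oligo and NAC mouse 3 (-0.26, adjusted p = 0.0595), and without NAC it was 0.19 ± 0.11 (adjusted p = 0.2).

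NAC thus raised 4 of the 8 genes in control oligo mice (Cyp26a1, Rarb, Lrat and Aldh1a7) and lowered none, while 8.61% of all genes passed, 6.21% higher and 2.41% lower. Their median difference was 0.36, against 0.03 over all genes. The NAC effect differed between the oligos for 2 of the 8 (Cyp26a1 and Rarb), against 4.99% of all genes. Cyp26a1 lay below the median of all values in every Npc1 oligo mouse, which limits this comparison. In the control oligo group with NAC, Npc1 was also lower, as given above. Its part in these results was not tested.

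**Figure D4:**
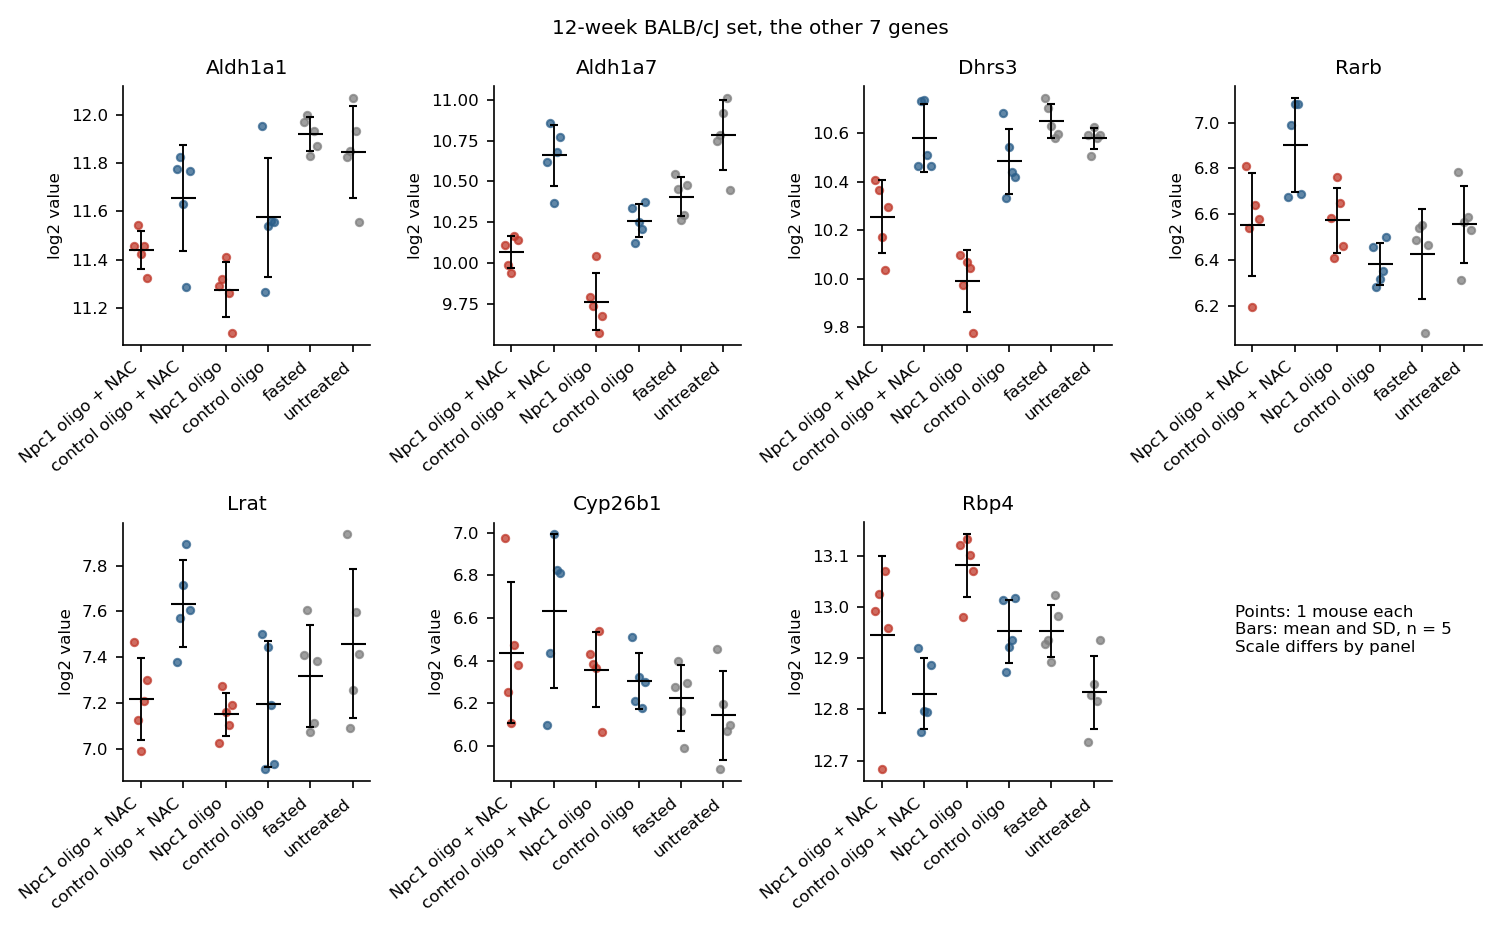
Log2 values (y axes, scale set per panel) of the other 7 genes in each mouse of the 6 12-week groups (x axes), with bars for mean and SD (n = 5). Dhrs3 and Aldh1a7 are lower in both Npc1 oligo groups than in their control oligo groups, and Rarb and Lrat have their highest 12-week means, 6.90 and 7.63, with the control oligo and NAC.

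Within groups, mice with high Cyp26a1 also tended to have high Rarb and Lrat. Each mouse's value was taken as its deviation from its group mean, over all 78 mice. The correlation r of these deviations was 0.62 for Cyp26a1 and Rarb, 0.66 for Lrat and Rarb, and 0.51 for Cyp26a1 and Lrat. Dhrs3, also named above as responding to retinoic acid, had r of 0.01 with Cyp26a1, 0.21 with Rarb and 0.37 with Lrat. Among 12747 other genes, Rarb ranked first in likeness to Cyp26a1 and first in likeness to Lrat. The same mouse was highest in its group for Lrat and Rarb in 12 of 18 groups, and for Cyp26a1 and Rarb in 10. At 11 weeks, for example, Npc1-/- mouse 4 was the highest mutant in Cyp26a1 (7.40) and in Rarb (6.84). At 9 weeks Npc1+/+ mouse 2 was the highest control in Cyp26a1 (8.32), Cyp26b1 (7.16), Lrat (7.80) and Rarb (6.77). The same mouse was also the highest control in Rbp4 (12.96) and Aldh1a1 (12.63), so its high values were not limited to the genes named in this paragraph. In Aldh1a7 it was at 10.63, below mouse 1 at 10.68. The points of a group share its treatment, each pair of values shares an array, and the pairs were picked after their values were seen, so these are descriptions without a test.

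**Figure D5:**
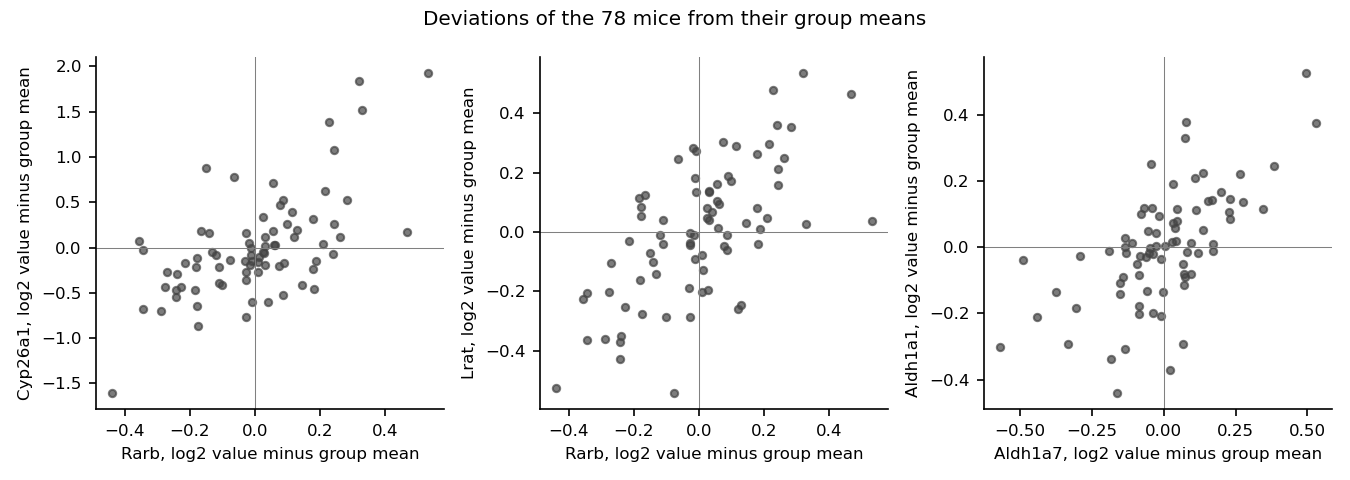
Deviations of the 78 mice from their group means, in log2 units, for Cyp26a1 against Rarb (left), Lrat against Rarb (middle) and Aldh1a1 against Aldh1a7 (right); each point is 1 mouse. The points run upward in all 3 panels, with r of 0.62, 0.66 and 0.64.

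Aldh1a1 and Aldh1a7 formed the other pair, with r of 0.64 within groups. There Ces1g (0.70) was closer to Aldh1a1, and Cyp2c55 (0.72) and Cpsf3 (0.65) were closer to Aldh1a7. Over the 18 group means the r of Aldh1a1 and Aldh1a7 was 0.92. Over group means, by contrast, Cyp26a1 and Rarb had r of -0.02. Of all genes, those most like each of the 8 over the 18 group means were Smyd1 (r of 0.90), Gpcpd1 (0.89) and Wdr45b (0.85) for Cyp26a1, and Slco2b1, Cyp2c29 and Hebp1 (0.96, 0.95 and 0.95) for Aldh1a1. For Aldh1a7 they were Gstm6 (0.98), Acss2 (0.95) and Cox19 (0.94), and for Dhrs3 Sod1, Sqor and Acat3 (0.89, 0.89 and 0.89). Likeness was lower for Rbp4 (Mat1a, 0.85), Rarb (Gbp8, 0.83), Lrat (Ermp1, 0.83) and Cyp26b1 (Fam222a, 0.77).

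Age in Npc1+/+ livers moved 6 of the 8 genes (53.3% of all genes), with Dhrs3 (adjusted p = 0.0735) and Rbp4 (adjusted p = 0.177) outside the threshold. The age effect on Cyp26b1 (adjusted p = 0.0425) was lost without several single mice (adjusted p up to 0.0949), and that on Dhrs3 passed without 11-week mouse 3 (adjusted p = 0.00509). Between 1 and 3 weeks 4 passed (36.9% of all genes): Aldh1a1 and Aldh1a7 rose, and Rarb and Lrat fell. The Lrat difference was -0.57 ± 0.19 (adjusted p = 0.0134), and without 1-week Npc1+/+ mice 3 and 4, whose original numbers lie apart from the rest, it was -0.46 (adjusted p = 0.147). Between 3 and 5 weeks 3 passed (6.55% of all genes). Cyp26a1 was 1.58 ± 0.48 higher at 5 weeks (adjusted p = 0.0371), a call lost without 5-week mouse 2 or 4 or 3-week mouse 2, 3 or 4 (adjusted p = 0.0591 to 0.256, with 1.07 without 5-week mouse 4) and without both 3-week mice with pancreas signal (1.73, adjusted p = 0.097). Aldh1a1 was 0.46 ± 0.15 higher (adjusted p = 0.0494), lost without 5-week mouse 2, 3 or 4 or 3-week mouse 2, 3 or 4 (adjusted p = 0.0618 to 0.163). Between 5 and 11 weeks 0 of 8 passed in limma (0.19% of all genes), and 1 (Cyp26b1) had an unadjusted p under the threshold.

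Of 40 listed genes of retinoid transport, oxidation, receptors, carotenoid cleavage and retinoic acid response, 38 were on the array and 31 passed the filter on low values. In Npc1-/- livers at 11 weeks 5 of 31 were higher and 13 lower, where 39.3% of all genes passed, with a median difference of -0.20 against -0.02 over all genes. Of the 15 retinol and retinal dehydrogenases and reductases tested, 3 were higher and 9 lower. Adh4, an alcohol dehydrogenase that oxidises retinol, fell by 2.04 ± 0.16 (adjusted p = 2.31e-14), and Rdh16, a retinol dehydrogenase, by 1.17 ± 0.12 (adjusted p = 4.57e-11). Fabp5, which binds fatty acids and retinoic acid, rose by 2.42 ± 0.26 (adjusted p = 1.23e-10), and Dhrs9, a retinol dehydrogenase, by 1.20 ± 0.28 (adjusted p = 0.000504).

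With the Npc1 oligo 3 of 31 were higher and 12 lower, where 22.9% of all genes passed. Adh4 fell by 1.17 ± 0.10 (adjusted p = 1.22e-09) and Rdh11, a retinal reductase, by 0.61 ± 0.13 (adjusted p = 0.000928), while the carotene-cleaving enzyme Bco1 rose by 0.56 ± 0.12 (adjusted p = 0.000795). Rdh11 went the other way in young Npc1-/- livers, at 0.79 ± 0.24 at 1 week, 0.67 ± 0.24 at 3 weeks and 1.47 ± 0.24 at 5 weeks (adjusted p = 0.0378, 0.0475 and 1.02e-05, limma). For the Npc1 oligo with NAC in both arms 1 of the listed genes was higher and 11 lower, where 25.9% of all genes passed. NAC in control oligo mice raised 4 of 31, namely Fabp5, Dhrs9, Rxrg and Stra6l, and lowered none, where 8.61% of all genes passed. In Npc1 oligo mice 0 of 31 passed, against 7.27% of all genes. Over the mean of the ages in Npc1-/- livers, 52.6% of all genes passed. Of the 4 tested genes of a list with known response to retinoic acid, 2 were higher and 1 lower. Among them Tgm2, a transglutaminase, rose by 0.51 ± 0.06 (adjusted p = 6.5e-10).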

How the data were processed

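Liver RNA of 78 mice was hybridised to 1 Affymetrix array each. The values deposited by the authors are on the log2 scale, as read from their range. The submitters' processing notes list RMA and Partek 6.5, and the order of steps is not given in the sources used here. Livers of the 12-week set were frozen or kept in RNAlater, without a label for which. The precision is limited by the number of arrays, and whether mice share litters is not labelled.

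Per gene, the probe set with the highest mean over all arrays was used, among the 21789 with 1 symbol. Of the probe sets, 1621 have several symbols and 12146 are not listed or have none. Genes above the median of all values, 5.54, on at least 4 arrays (5 in the 12-week set) were tested with limma 3.58.1 in R 4.3.3, with 1 mean per group, moderated variances and Benjamini-Hochberg adjustment. All 8 genes passed this filter, Cyp26a1 through 12 of 48 and 17 of 30 arrays and the other 7 through every array. For Cyp26a1 the age-series arrays above the median were 10 of Npc1+/+ and 2 of Npc1-/- mice. In the 12-week set 0 of them came from either Npc1 oligo group. Cyp26a1 thus entered the tests mainly through the groups where it was higher. Separate fits were used for mice of the age series and of 12 weeks, and a joint fit only for their difference. The code was tested on simulated data. Pathway genes were named as up to 4 per comparison with the largest called change, and similar genes as the 3 with the highest correlation over group means. Alternatives were another filter, quantile normalization, centring, an intensity trend, a replicate block, only the groups compared, and 1 mouse left out. The genes and lists were chosen with earlier results of these data known.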

Additional observations from a re-analysis of the deposited data

Results flagged for a closer look

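Single mice stood far from the rest of their group for 5 of 144 combinations of gene and group, where chance flags about 1 in 20. Cyp26a1 was 7.40 in Npc1-/- mouse 4 at 11 weeks, while the other 3 ran from 4.79 to 4.87. Cyp26a1 was 6.69 in Npc1+/+ mouse 3 at 7 weeks, while the others ran from 5.18 to 5.40. Cyp26b1 was 6.96 in Npc1+/+ mouse 3 at 11 weeks, with the others at 6.24 to 6.27. Rbp4 was 12.68 in Npc1 oligo and NAC mouse 3, with the others at 12.96 to 13.07. Rarb was 6.08 in fasted mouse 4, with the others at 6.46 to 6.55.

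The genotype effect differed between ages for Aldh1a1 (adjusted p = 0.00018), Aldh1a7 (adjusted p = 0.000457), Dhrs3 (adjusted p = 0.0155) and Rarb (adjusted p = 0.0238), by limma's moderated F test. The effect of NAC differed between Npc1 oligo and control oligo mice by -1.76 for Cyp26a1 and by -0.54 for Rarb. For Cyp26a1 all Npc1 oligo mice were below the median of all values. The genotype effect at 11 weeks differed from the Npc1 oligo effect by -0.72 for Aldh1a1.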

How the results depend on the processing

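No difference that passed the threshold turned its direction under the alternatives run. Of 1345 values under settings other than leaving out a mouse, 1290 kept their side of the threshold, 38 no longer passed and 17 newly passed. Of those that kept their side, 160 came from averaging a gene's probe sets. That setting leaves the levels of the 8 genes unchanged, since each has 1 probe set, and so says nothing about robustness. The number of the 8 genes past the threshold moved by over 1.5 times in the cases that follow, and by less in others, such as 8 for the mean over ages with quantile normalization (Cyp26b1 and Rbp4 added) and 3 at 11 weeks with centring (Lrat lost, adjusted p = 0.0537). At 5 weeks it was 2 with quantile normalization and 0 with only the groups compared, a setting whose own filter left Cyp26a1 untested in 7 results. For 5 against 3 weeks in Npc1+/+ livers it was 1 with an intensity trend. For NAC in Npc1 oligo mice it was 0 without the filter or with only the groups compared, and 1 with centring or the replicate block. For the difference between NAC effects it was 1 without the filter and 1 with only the groups compared. For the control oligo against untreated it was 1 without the filter, 1 with quantile normalization and 1 with only the groups compared. For fasting it was 1 with quantile normalization and 1 with an intensity trend. The cause was not tested.

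Leaving out 1 mouse at a time gave counts of 0 to 1 at 5 weeks, 2 to 4 at 7 weeks, 0 to 2 at 9 weeks, 1 to 3 for 5 against 3 weeks, 0 to 2 for NAC in Npc1 oligo mice, 1 to 2 for the difference between NAC effects, 0 to 1 for fasting, 1 to 2 for the control oligo against untreated and 1 to 2 for 11 weeks minus the oligo.

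Rbp4 passed with quantile normalization for the mean over ages (-0.06, adjusted p = 0.0387), the Npc1 oligo with NAC (0.19, adjusted p = 0.00237) and NAC in control oligo mice (-0.15, adjusted p = 0.0382). It passed with centring for the mean over ages (adjusted p = 0.048), 3 against 1 week (adjusted p = 0.0415) and the Npc1 oligo (adjusted p = 0.0388). Its variation between ages passed with a stricter filter (adjusted p = 0.0421), an intensity trend (adjusted p = 0.0282) and without 1-week Npc1+/+ mice 3 and 4 (adjusted p = 0.0486). Calls also lost were Aldh1a1 for the Npc1 oligo with centring (adjusted p = 0.0677) and Lrat for NAC in control oligo mice without the filter (adjusted p = 0.0505) or with quantile normalization (adjusted p = 0.056).

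The labels do not say that mice with the same number belong together. Over 54 pairs of same-numbered mice in groups compared, their deviations correlated at -0.329 to 0.284, with 10 over 0.1. These values cannot show whether such mice share a litter or a batch. With the replicate block 157 of 160 values kept their side of the threshold. The exceptions were Aldh1a7 for NAC in Npc1 oligo mice (adjusted p = 0.0712), Aldh1a1 for 5 against 3 weeks (adjusted p = 0.0552) and Cyp26b1 for age (adjusted p = 0.0523).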
